A study of Mus musculus with 4 samples.

Results

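The Fc gamma receptors of the mouse are encoded by 4 genes, Fcgr1, Fcgr2b, Fcgr3 and Fcgr4, and all 4 were found by name among the 34745 genes of the deposited expression table. They were followed in bone marrow derived macrophages (BMMs) from wild type C57BL/6 male mice aged 8 weeks. The cells were kept without serum for 12 h and then given RANKL (100 ng/mL), the cytokine that drives macrophages towards osteoclasts, for 24 h. One group received dimethyl itaconate (RANKL+DI), a cell-permeable ester of the macrophage metabolite itaconate, and the other received the vehicle DMSO (RANKL+Veh). Each group held 2 libraries, RANKL was present in both, and cells without RANKL were not part of the series. The labels give the dose of DI as 20 mM, whereas the methods of the study give 20 μM. The labels do not state whether the libraries of a group came from separate mice or cultures, so p-values measure the spread between these libraries, which may be technical.

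Fc gamma receptors bind the constant part of IgG and let macrophages take up and respond to antibody-coated particles and immune complexes. FcγRI (Fcgr1), FcγRIII (Fcgr3) and FcγRIV (Fcgr4) are activating and associate with the FcR common gamma chain (Fcer1g), whose paired tyrosines (ITAM) recruit the kinase Syk. FcγRIIB (Fcgr2b) is the single inhibitory member and carries its own tyrosine motif (ITIM), which recruits the phosphatase SHIP1 (Inpp5d). In osteoclast precursors, the common gamma chain also serves other receptors that act as co-stimulators of RANKL signalling.

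The opposing signals of the family lie in short cytoplasmic tyrosine motifs, shown here because the balance between these 2 kinds of receptor is followed below. The sequences were read from the GENCODE M21 transcripts (GRCm38, minus strand of chromosome 1), with the tyrosine codon and the next 3 codons in capitals. The Fcgr2b motif has its tyrosine at codon 319 of 340 and lies at chr1:170961056-170961097. The tyrosines of the Fcer1g ITAM are at codons 65 and 76 of 86, at chr1:171229907-171230087, which spans an intron, and at chr1:171229874-171229915.
Fcgr2b inhibitory motif: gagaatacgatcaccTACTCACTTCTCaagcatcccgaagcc
Fcer1g ITAM, first tyrosine: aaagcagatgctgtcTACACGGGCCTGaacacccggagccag
Fcer1g ITAM, second tyrosine: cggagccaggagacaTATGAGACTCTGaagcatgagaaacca

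Fcgr2b and Fcgr3 are near copies of each other in the part that encodes the extracellular domains, which bears on how their reads could be counted. Their longest coding transcripts aligned over 509 bases at 96.5% identity, with 18 differences and a longest identical run of 129 bases. The 150 bases with most of the differences are given below with the 13 differing bases in capitals. They lie in the coding sequence, at chr1:170968082-170968231 in Fcgr2b and chr1:171057793-171057942 in Fcgr3 (GRCm38, minus strand).
Fcgr2b: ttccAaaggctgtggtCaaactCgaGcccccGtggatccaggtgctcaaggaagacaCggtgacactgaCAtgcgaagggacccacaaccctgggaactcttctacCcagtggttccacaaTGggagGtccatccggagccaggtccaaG
Fcgr3: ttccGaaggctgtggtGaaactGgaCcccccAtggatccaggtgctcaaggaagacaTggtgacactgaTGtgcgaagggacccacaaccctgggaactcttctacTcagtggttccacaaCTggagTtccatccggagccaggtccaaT
Of all 50-base windows of each transcript, 12.8% in Fcgr3 and 4.75% in Fcgr2b occurred in the other gene, and a further 7.73% of the Fcgr2b windows occurred in genes outside the family. Fcgr1 and Fcgr4 shared 0 windows with any gene, and Fcgr4 matched Fcgr2b at 64.7% and Fcgr3 at 64.4% identity. How reads that fit several genes were counted is not given in the sources used here, so a part of the Fcgr2b and Fcgr3 counts is uncertain.

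The libraries held 17843712 and 19403480 counts in the DI libraries and 17979114 and 16085692 in the vehicle libraries, and 3 counts, taken as the floor of detection, correspond to 0.160 to 0.180 CPM, the count scaled to library size with TMM factors. All 4 receptors were far above this floor and were among the 12590 genes tested. The macrophage identity of the cells was checked with 15 marker genes, none of which was at 0, and Lyz2 alone reached 17630 to 23786 CPM. Between groups, 7 macrophage markers were higher with DI (among them Itgam, log2 fold change 0.57, Mertk 0.43 and Lyz2 0.37) and 2 were lower (Cd14, -0.51, and Ptprc, -0.20). Itgam is listed under 2 identifiers, and the value is that of ENSMUSG00000030786. The other entry had a log2 fold change of 0.16 and was not called (adjusted p 0.245 by edgeR). Of 15 osteoclast genes, 13 were tested, of which 6 were lower (led by Ocstamp, -2.52, Mmp9, -1.64, Acp5, -0.95, and Ctsk, -0.58) and 3 were higher (Itgb3, 0.56, Atp6v0d2, 0.27, and Tcirg1, 0.20). Of the 14 alternatives, 6 did not call Tcirg1 and 3 did not call Ptprc. With libraries scaled by their totals only, 4 macrophage markers were higher and 2 lower, and 2 osteoclast genes were higher and 7 lower. In bulk RNA, fewer cells of a type and less RNA per cell cannot be told apart, and the part of these shifts in the receptor values was not tested.

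Within the family, Fcgr3 rose and Fcgr1 fell with DI, while neither Fcgr4 nor Fcgr2b passed the test. This makes 1 of 4 receptors higher, where 7.14% of all tested genes were called higher, and 1 of 4 lower, where 7.7% of all tested genes were called lower. In either direction the call was made for 2 of 4 receptors and for 14.8% of all tested genes, at an adjusted p under 0.05 (edgeR quasi-likelihood test, Benjamini-Hochberg adjustment over all tested genes). The libraries of the groups did not overlap for 3 of 4 receptors, a count to be read beside the 58.6% of all tested genes for which this held. The median log2 fold change was 0.17 over the receptors and 0.0012 over all tested genes. Of all calls, 899 were higher and 969 lower, and these became 548 and 1932 when libraries were scaled by their totals only, which moved the median of all genes to -0.10. Splits of calls under that scaling are given below beside each list it alters. Counts of calls in each list are to be read beside the 14.8% of all tested genes called in either direction.

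**Figure D1:**
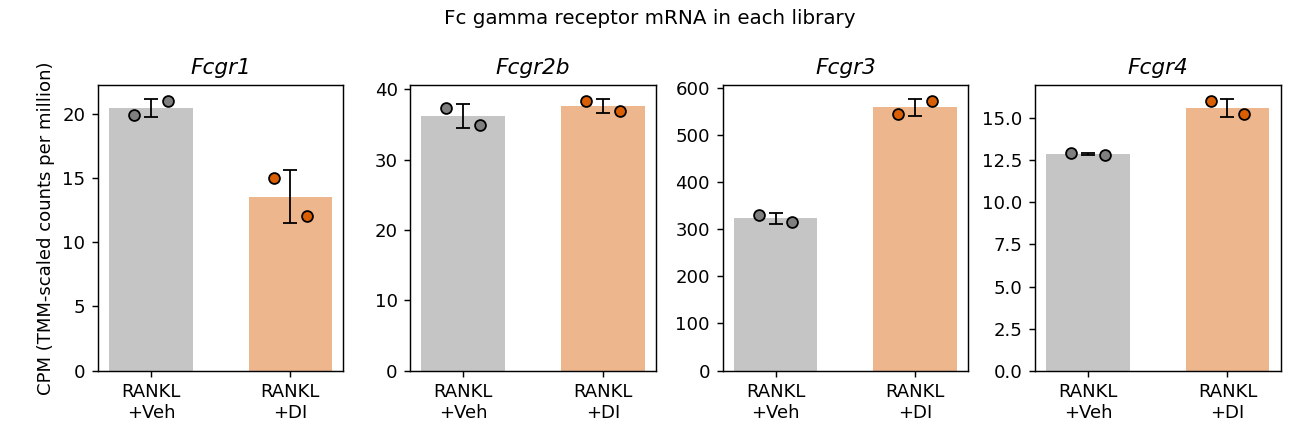
CPM (counts scaled to library size with TMM factors) of each receptor (vertical axes start at 0 and differ between panels) in the RANKL+Veh and RANKL+DI libraries. Bars are means, error bars SD and points the 2 libraries of a group. Fcgr3 is at 544 CPM or more in both DI libraries and at most 331 in both vehicle libraries, the Fcgr1 points lie lower with DI, and the Fcgr2b points overlap.

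Fcgr3 (ENSMUSG00000059498, chr1:171051174-171064935), the low-affinity activating receptor, had 9345 and 10709 counts in the DI libraries and 6161 and 5239 in the vehicle libraries. Scaled to depth, these were 544 and 571 CPM against 331 and 315 CPM, or 558 ± 18.9 and 323 ± 11.5 (mean ± SD, n = 2 each). Both DI libraries were above both vehicle libraries, and the gap was many times the spread within either group. The log2 fold change was 0.79 (SE 0.0449, 95% interval 0.68 to 0.90), a rise of 72.9%, with an adjusted p of 0.00058 by edgeR. By p-value, Fcgr3 ranked 51 of 12590, and by log2 fold change 273 from the highest. It was called under all 14 alternative settings, with log2 fold changes from 0.68 to 0.83.

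Fcgr1 (ENSMUSG00000015947, chr3:96282909-96293969) encodes the high-affinity receptor, which binds monomeric IgG, and it is the only member outside chromosome 1. It had 257 and 226 counts in the DI libraries and 371 and 349 in the vehicle libraries. The scaled levels were 14.97 and 12.05 CPM against 19.92 and 20.95 CPM, or 13.5 ± 2.06 and 20.4 ± 0.733 (mean ± SD, n = 2 each). Both DI libraries lay below both vehicle libraries, and the spread between the DI libraries was the larger one. The log2 fold change was -0.60 (SE 0.129, 95% interval -0.91 to -0.28), and the level fell by 33.9%, with an adjusted p of 0.0314 by edgeR. This call rested on few libraries. It was lost without DI replicate 2 (-0.45, adjusted p 0.0826), without vehicle replicate 1 (-0.64, 0.0758) and without vehicle replicate 2 (-0.56, 0.106), and was kept without DI replicate 1 (-0.76, 0.0139). The direction was negative under all 14 alternatives.

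Fcgr4 (ENSMUSG00000059089, chr1:171018920-171029761), an activating receptor of intermediate affinity, had 275 and 286 counts in the DI libraries and 241 and 214 in the vehicle libraries. The levels were 16.0 and 15.3 CPM against 12.9 and 12.8 CPM, or 15.6 ± 0.544 and 12.9 ± 0.0636 (mean ± SD, n = 2 each). The DI libraries were above the vehicle libraries without overlap, but the difference did not pass adjustment. The log2 fold change was 0.28 (SE 0.0983) with an unadjusted p of 0.0305 and an adjusted p of 0.122 by edgeR, and its 95% interval ran from 0.037 to 0.52. None of the 14 alternatives called it, and the log2 fold change stayed between 0.16 and 0.32.

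Fcgr2b (ENSMUSG00000026656, chr1:170958617-170976547), the inhibitory receptor, had 659 and 692 counts in the DI libraries and 696 and 582 in the vehicle libraries. The levels of 38.4 and 36.9 CPM with DI and of 37.4 and 34.9 CPM with vehicle overlapped, with means of 37.6 ± 1.05 and 36.2 ± 1.71 (SD, n = 2 each). The log2 fold change was 0.06 (SE 0.0702, adjusted p 0.637 by edgeR). Its 95% interval from -0.11 to 0.23 leaves room for a level from 0.924 to 1.17 times that of vehicle. The sign depended on the scaling, since it was -0.05 when libraries were scaled by their totals only and -0.04 on the log2(FPKM + 1) scale. Relative to the median of all genes under that scaling (-0.10), Fcgr2b was not lower. The exons of Gm38204 on the opposite strand overlap 155 bases of Fcgr2b (2.68%), and Gm38204 had 0 counts in every library.

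**Figure D2:**
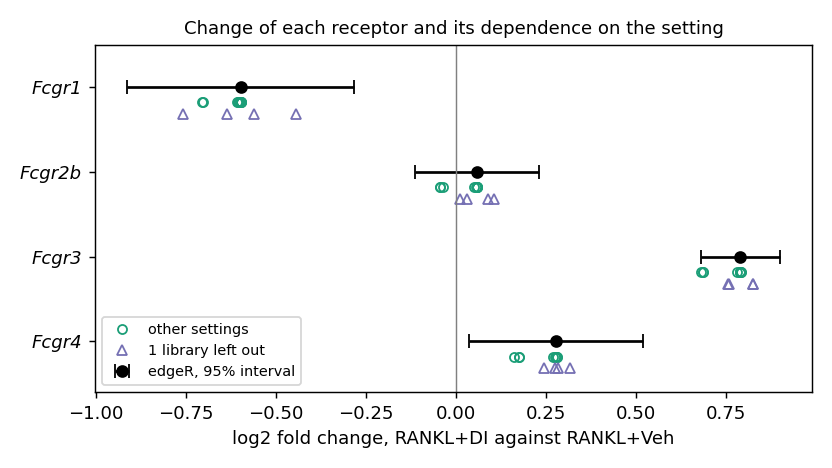
Log2 fold change of each receptor, RANKL+DI against RANKL+Veh (horizontal axis), as fitted by edgeR with its 95% interval (black), under other settings (circles) and with 1 library left out (triangles). Every Fcgr3 value lies between 0.68 and 0.83, every Fcgr1 value between -0.76 and -0.45, and the Fcgr2b values fall on both sides of 0.

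**Figure D3:**
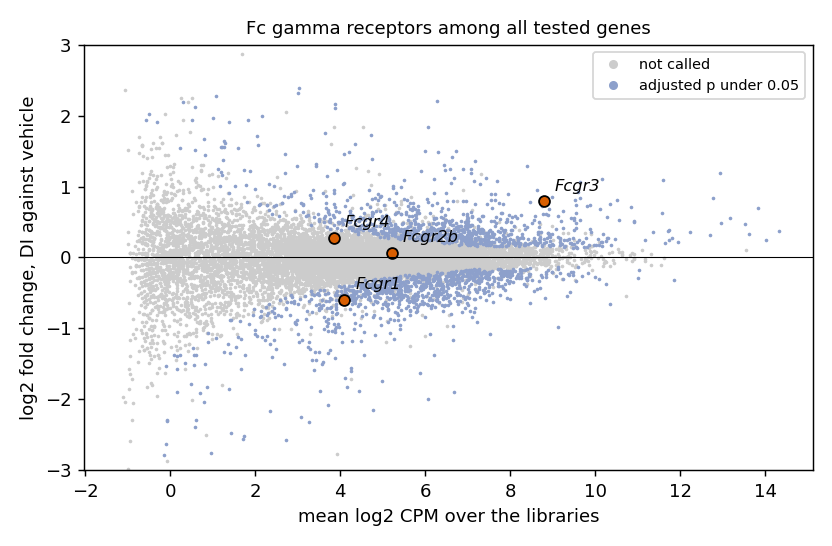
Log2 fold change (vertical axis) against mean log2 CPM (horizontal axis) for the tested genes, with genes at an adjusted p under 0.05 in blue and the receptors in orange. The vertical axis is limited to 3 in either direction, which leaves out 5 genes. Fcgr3 lies among the highly expressed genes, and the other receptors have medium levels.

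Compared per length, Fcgr3 had the highest level of the family in every library. In the authors' FPKM values, which are scaled to gene length and depth, Fcgr3 was at 137 and 144 with DI and 89.5 and 85.1 with vehicle. Fcgr4 followed with 12.3 and 11.7 against 10.7 and 10.6 FPKM. Fcgr1 (4.93 and 3.99 against 7.07 and 7.43 FPKM) and Fcgr2b (4.91 and 4.74 against 5.14 and 4.81 FPKM) came last. Fcgr1 was above Fcgr2b in both vehicle libraries, but their DI values overlapped, so these neighbours did not differ beyond their spread with DI. Their order also depends on the length used. The deposited values imply lengths of 2919 bases for Fcgr1, 7526 for Fcgr2b, 3829 for Fcgr3 and 1256 for Fcgr4, whereas the longest coding GENCODE M21 transcripts hold 2589, 3544, 1347 and 1256 bases. With these transcript lengths, the ratio of Fcgr1 to Fcgr2b was below 1 in all libraries, at 0.534 and 0.447 with DI and 0.730 and 0.821 with vehicle. Fcgr4 and Fcgr2b then also lay close together in the vehicle libraries, where Fcgr4 held 3.76% and 3.91% and Fcgr2b 3.85% and 3.77% of the summed receptors, so the order below Fcgr3 was not settled. Among all tested genes, Fcgr3 stood at percentile 97.5 of the FPKM levels, Fcgr4 at 71.8, Fcgr1 at 55.6 and Fcgr2b at 50.9.

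The make-up of the receptor mRNA therefore moved towards Fcgr3. Fcgr3 accounted for 86.1% and 87.6% of the summed FPKM of the receptors with DI and for 79.6% and 78.8% with vehicle. The other members all held a smaller share with DI. Fcgr1 held 3.11% and 2.42% against 6.29% and 6.89%, Fcgr4 held 7.72% and 7.13% against 9.50% and 9.82%, and Fcgr2b held 3.09% and 2.88% against 4.58% and 4.46%. The difference in the share of Fcgr2b was -1.53 percentage points (2.98% ± 0.148 against 4.52% ± 0.0857, SD, n = 2 each), and it was 0.909 points in the other direction when Fcgr3 was left out of the sum. With transcript lengths, Fcgr3 held 93.2% and 94.0% with DI and 89.6% and 89.2% with vehicle, and Fcgr1 1.33% and 1.03% against 2.81% and 3.09%. The difference was then -1.77 points for Fcgr1 (-3.82 in FPKM) and -1.02 points for Fcgr4 (-2.23 in FPKM). Groups did not overlap for any share with all receptors in the sum. With 2 libraries against 2, the exact two-sided permutation p of each was still 0.33, the smallest this design allows. For the share of Fcgr2b with Fcgr3 left out, the groups overlapped (exact permutation p = 0.667). By raw counts, Fcgr2b made up 6.25% (Wilson 95% interval 5.81 to 6.73) and 5.81% (5.40 to 6.24) with DI and 9.32% (8.68 to 9.999) and 9.12% (8.43 to 9.85) with vehicle, where the intervals cover counting error only.

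The ratio of the summed activating receptors to Fcgr2b was 31.4 and 33.7 with DI and 20.8 and 21.4 with vehicle in FPKM. On the log2 scale it was 5.02 ± 0.0739 against 4.40 ± 0.0287 (SD, n = 2 each), a difference of 0.62 (exact permutation p = 0.33, the smallest possible). Without Fcgr3, the same difference was -0.08 (exact permutation p = 0.667), so the higher ratio rested on Fcgr3. The members moved in different directions relative to Fcgr2b. Fcgr3 was at 27.9 and 30.4 times the Fcgr2b level with DI and 17.4 and 17.7 times with vehicle, a log2 difference of 0.73. Fcgr4 was at 2.50 and 2.48 against 2.07 and 2.20 times, a log2 difference of 0.22, and Fcgr1 at 1.01 and 0.842 against 1.37 and 1.55 times, a log2 difference of -0.66. These ratios within a library do not depend on the scaling between libraries, and each has an exact permutation p of 0.33.

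**Figure D4:**
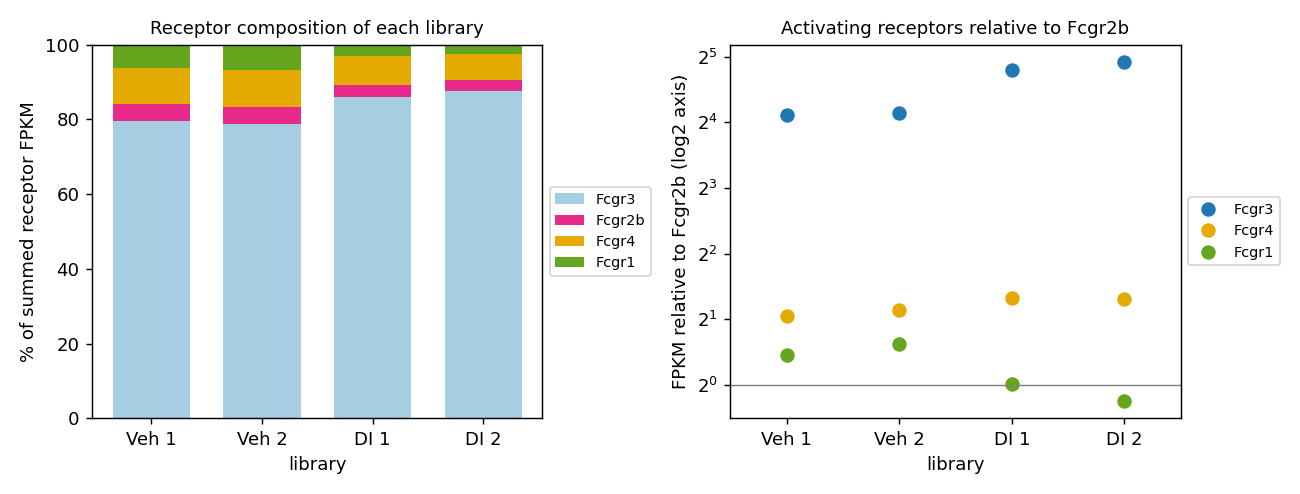
Left, share of each receptor in the summed FPKM of the family (vertical axis, %) in each library. Right, FPKM of each activating receptor relative to Fcgr2b in each library (log2 axis, the grey line marks equal levels). Fcgr3 takes 79.6% and 78.8% of the sum in the vehicle libraries and 86.1% and 87.6% in the DI libraries, and Fcgr1 is nearest to the Fcgr2b level with DI.

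The activating receptors need the common gamma chain for signalling, and Fcer1g was also higher with DI, by less than Fcgr3. Fcer1g had 9174 and 10277 counts in the DI libraries and 8779 and 6852 in the vehicle libraries, with a log2 fold change of 0.29 (SE 0.0668, adjusted p 0.0368 by edgeR), a call that 6 of the 14 alternatives did not make. In FPKM, Fcer1g was at 320 and 330 with DI and 304 and 265 with vehicle. The summed activating receptors were at 0.481 and 0.484 times Fcer1g with DI and 0.352 and 0.388 times with vehicle. These ratios rest on the lengths behind the deposited FPKM, and by CPM, which is not per length, Fcgr3 alone (544 and 571) was as high as Fcer1g (534 and 548) with DI.

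Of the 15 other immunoglobulin Fc receptor genes examined, 5 were tested, of which 2 were higher with DI and 0 lower, with a median log2 fold change of 0.22. Both calls were lost without vehicle replicate 2 and with libraries scaled by their totals, and 1 was left without any other single library. Besides Fcer1g, the receptor-like Fcrl1, known from B cells, had 349 and 340 counts in the DI libraries and 268 and 213 in the vehicle libraries (log2 fold change 0.50, SE 0.115, adjusted p 0.0383 by edgeR), and 6 of the 14 alternatives did not call it. Fcgrt, the neonatal receptor that recycles IgG, had a log2 fold change of 0.22 (adjusted p 0.203). Fcrls had 0.15 (0.578) and Trim21, a cytosolic antibody receptor, had -0.14 (0.271). With limma on log2(FPKM + 1) and on log2(FPKM + 0.01), 0 genes of this list were called higher and 1, Trim21, lower. The remaining genes of the list were at or near the floor. Fcer1a and Ms4a2, subunits of the mast cell IgE receptor, and Fcamr, Pigr, Fcmr and Fcrl6 were at 0 in every library. Fcer2a and Fcrla had 1 count in 1 library each, Fcrl5 at most 4 counts and Fcrlb, which lies near Fcgr2b, 5 to 7 counts.

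**Figure D5:**
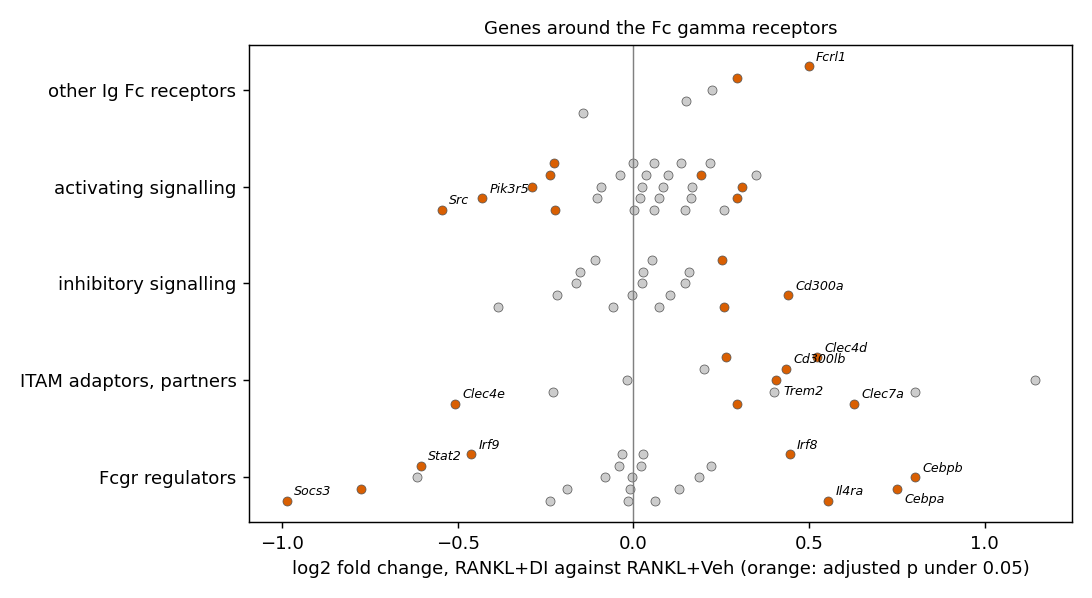
Log2 fold change, RANKL+DI against RANKL+Veh (horizontal axis), of the tested genes of 5 lists around the Fc gamma receptors (rows, with points spread vertically for legibility). Orange points have an adjusted p under 0.05, and most of those beyond 0.4 in either direction are named. The regulator list holds called genes on both sides, from Socs3 at -0.99 to Cebpb at 0.80, and the inhibitory list has no called gene on the lower side under this scaling (2 with libraries scaled by their totals).

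Downstream of the activating receptors, 29 signalling genes were tested, of which 3 were higher and 6 lower, with a median log2 fold change of 0.06. Syk, the kinase that binds the phosphorylated ITAM, had a log2 fold change of -0.04 (adjusted p 0.541). The genes that fell most were Src, a kinase that phosphorylates such motifs and is needed for bone resorption (-0.55, adjusted p 0.0081), Pik3r5, a regulatory subunit of PI3 kinase gamma (-0.43, 0.0019), and the adaptors Lcp2 (-0.29, 0.0226) and Blnk (-0.24, 0.0172). Those that rose were the adaptor Shc1 (0.31, 0.0247), Fcer1g (above) and Pik3cg, the catalytic subunit of PI3 kinase gamma (0.19, 0.0365). Of the 14 alternatives, 9 did not call Pik3cg, 6 did not call Shc1, 4 did not call Lcp2 and 3 did not call Blnk. The number of calls in this list fell from 9 to 2 without DI replicate 2, to 4 without vehicle replicate 1 and to 3 without vehicle replicate 2. With libraries scaled by their totals, 0 were called higher and 8 lower.

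Of 17 genes of inhibitory signalling, 3 were higher and 0 lower, a share of calls close to the 14.8% over all tested genes, and the median log2 fold change was 0.03. Inpp5d, the phosphatase recruited by FcγRIIB, had a log2 fold change of 0.03 (adjusted p 0.765), and its sign changed when libraries were scaled by their totals (-0.08). The genes that rose were the inhibitory receptors Cd300a (0.44, adjusted p 0.0055) and Lilrb4a (0.26, 0.0055) and the adaptor Dok2 (0.25, 0.0434), the last not called under 9 of the 14 alternatives. With libraries scaled by their totals, 2 genes of this list were called higher and 2 lower.

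A list of ITAM adaptors and receptors of osteoclast precursors, which holds Fcer1g again, was measured beside the family. Of its 16 genes, 13 were tested, of which 6 were higher, Fcer1g among them, and 1 lower, with a median log2 fold change of 0.40. The rises were led by the beta-glucan receptor Clec7a (0.63, adjusted p 0.00104), Clec4d (0.52, 0.00224), Cd300lb (0.43, 0.0042) and Trem2 (0.41, 0.00229). Clec4e, a receptor of the Clec4d family that pairs with the common gamma chain, fell by 0.51 on the log2 scale (adjusted p 0.0277), a call lost without DI replicate 1, without DI replicate 2 and without vehicle replicate 2. Oscar, a collagen receptor of osteoclasts that uses the same chain, was too low to be tested. The calls in this list fell from 7 to 4 without DI replicate 2, and were 4 higher and 2 lower with libraries scaled by their totals.

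As candidate regulators of Fc gamma receptor transcription, 23 genes were chosen. Of these, 4 were higher and 4 lower, with a median log2 fold change of -0.01 (4 and 8 with libraries scaled by their totals). Among the genes that fell were Socs3, a feedback inhibitor of cytokine signalling (-0.99, adjusted p 0.0119) and the interferon signalling factors Stat2 (-0.61, 0.0062) and Irf9 (-0.46, 0.0098). The genes that rose were the myeloid factors Cebpb (0.80, 0.00058), Cebpa (0.75, 0.0090) and Irf8 (0.45, 0.0030) and the interleukin 4 receptor Il4ra (0.56, 0.00148). Spi1, which encodes PU.1, had a log2 fold change of -0.04 (adjusted p 0.586).

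The start regions of both receptors that changed are shown because some of the factors above bind motifs of known letters. The sequences are the 250 bases before the RefSeq start (GRCm38.p6), at chr3:96293970-96294219 for Fcgr1 and chr1:171059404-171059653 for Fcgr3, both on the minus strand. Capitals mark matches, on either strand, to the interferon gamma-activated site GAS (TTCNNNGAA) and the PU.1 box (GAGGAA).
Fcgr1: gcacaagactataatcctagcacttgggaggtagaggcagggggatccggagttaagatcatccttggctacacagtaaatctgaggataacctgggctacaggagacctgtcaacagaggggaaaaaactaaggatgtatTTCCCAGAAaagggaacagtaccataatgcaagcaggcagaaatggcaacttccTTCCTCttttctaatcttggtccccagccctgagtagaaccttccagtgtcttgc
Fcgr3: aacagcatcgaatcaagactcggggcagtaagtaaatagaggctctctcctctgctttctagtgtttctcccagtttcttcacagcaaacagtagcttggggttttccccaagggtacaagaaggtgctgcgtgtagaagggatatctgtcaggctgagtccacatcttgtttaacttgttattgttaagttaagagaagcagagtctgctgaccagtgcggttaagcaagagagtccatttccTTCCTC
The 300-base window of each gene, with a further 50 bases after the start, was searched for these motifs, for an interferon response core (ISRE, GAAA, then any 2 bases, then GAAA) and for an antioxidant response core (ARE, TGACNNNGC). Fcgr1 held a GAS match that begins at -109 from the start and a PU.1 box at -55. Fcgr3 held a PU.1 box at -6, and Fcgr4 an ISRE core at -73 and a PU.1 box at -22. No match was found in the Fcgr2b window, nor any ARE core in the family. Of 27025 promoter windows of this length, 8.47% held a GAS match, 3.49% an ISRE core, 28.3% a PU.1 box and 12.5% an ARE core. The RefSeq starts of Fcgr2b, Fcgr3 and, by a few bases, Fcgr4 lie inside the span of the deposited gene. A match is a description of the letters only.

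The deposited annotation lists 83 genes under the KEGG pathway of Fc gamma R-mediated phagocytosis, Fcgr1 and Fcgr2b among them but not Fcgr3 or Fcgr4. Of these, 78 were tested, of which 10 were higher and 8 lower, with a median log2 fold change of 0.07 (8 and 15 with libraries scaled by their totals). Among the genes that rose were the protein kinase C gene Prkcb (0.79, adjusted p 0.0043), the lipid phosphatase Ppap2b (0.69, 0.0058) and Bin1, which shapes membranes (0.37, 0.0054). Those that fell most were the actin-severing Scin (-2.57, 0.0042), Fcgr1 (above), the filopodial motor Myo10 (-0.49, 0.0143) and Pik3r5 (above).

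Markers of other cells that carry Fc receptors were examined beside the family. Of 10 B cell markers, Pax5, Blk, Vpreb3 and Igkc were at 0 in every library, and the summed level was 36.6 and 35.3 CPM with DI against 20.99 and 21.7 CPM with vehicle. That sum was nearly all Ighm and Cd22. Ighm had 364 and 435 counts in the DI libraries and 196 and 186 in the vehicle libraries (log2 fold change 1.03, adjusted p 0.00298 by edgeR). Cd22, at 15.3 and 11.8 CPM with DI and 10.3 and 9.97 with vehicle, had a log2 fold change of 0.42 (adjusted p 0.125), and both were at levels like that of Fcgr1. Of 10 NK and T cell markers, 7 were at 0, and the sum was 1.69 and 1.60 against 0.859 and 0.841 CPM. Of 10 mast cell and basophil markers, 6 were at 0, with sums of 0.533 to 1.57 CPM, and neutrophil markers summed to 9.39 to 11.2 CPM, with Ly6g and Retnlg at 0. Dendritic cell markers summed to 83.4 and 81.1 CPM with DI and 107 and 97.1 with vehicle, of which Bst2, also expressed by macrophages, was nearly the whole (log2 fold change -0.32, adjusted p 0.0234), while Cd209a and Siglech were at 0. The B cell and NK sums were higher in the group with more Fcgr3. No NK or T cell marker was called, with adjusted p of 0.254 for Lck and 0.517 for Klrb1c by edgeR. The part of these sums in the receptor values was not tested.

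No tested gene outside the family within 100 kb of a receptor was called, although the error of the low ones leaves room for changes as large as those of the receptors. Within 100 kb of Fcgr1, 6 genes were tested (Bola1, Hist2h2be, Gm20634, Hist2h3c2, Gm20633 and Gm20632) and 0 were called by edgeR, none having an unadjusted p under 0.05 except Gm20632 (0.0188). In the cluster on chromosome 1, Fcgr4 lies 21413 bases from Fcgr3 and 42373 bases from Fcgr2b. The tested genes outside the family within 100 kb of these members (Dusp12, Atf6, Gm9929, Cfap126 and Sdhc) had adjusted p from 0.404 to 0.919, and Gm9929 (-0.40, SE 0.509) and Cfap126 (0.35, SE 0.644) had the largest errors.

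Profiles most like those of the receptors were sought by the distance between log2 CPM values over the 4 libraries, each centred on its mean. Nearest to Fcgr3 were the NADP-dependent malic enzyme Me1 (distance 0.037, log2 fold change 0.76), the acetyltransferase Naa30 (0.063, 0.84) and the tetraspanin Cd81 (0.064, 0.79), and 25 genes lay within a distance of 0.1. Nearest to Fcgr1 were Sgol1 (0.052, -0.57), a protector of cohesion in dividing cells, the lysophosphatidic acid receptor Lpar1 (0.056, -0.56) and Gm43457 (0.065, -0.69), with 15 genes within 0.1. By edgeR, the adjusted p was 0.0398 for Sgol1, 0.127 for Lpar1 and 0.330 for Gm43457, so only Sgol1 was called. Of the 14 alternatives, 4 did not call Sgol1. Similar fold changes follow from picking genes by their profile. Nearest to Fcgr4 were Rab11a, Lilr4b and Fermt3 (393 genes within 0.1), and nearest to Fcgr2b were Wdr11 and Mrps33 (1045 genes within 0.1).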

How the data were processed

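RNA was measured in 4 libraries of BMMs, grouped by their labels. The authors deposited whole-number counts per gene and library, without normalization, and FPKM values scaled to gene length and depth, and a second table repeats both with KEGG pathways. Genome builds GRCm38 and mm10 are named in the submitters' processing notes, while the aligner, counter and annotation release are not given in the sources used here. Counts were tested in R 4.3.3 with edgeR 4.0.16 (TMM factors, default filter on low counts, quasi-likelihood test) over 12590 genes, and the SE is the size of the log2 fold change divided by the square root of F. This step was also run on counts simulated with the mean levels and dispersions of these libraries. The changes set there were larger than that of any receptor, so that run does not test the receptor calls. Shares and ratios used FPKM, with exact two-sided permutation tests over libraries (scipy 1.17.1). Sequences came from GENCODE M21 and RefSeq and were compared with BLAST+ 2.17.0. Other fits used upper quartile factors, the size factors of DESeq2, library totals only, no filter, at least 10 counts in every library, DESeq2 1.42.0, limma-voom (limma 3.58.1), limma on log2(FPKM + 1) and log2(FPKM + 0.01), the replicate number as a block and each library left out. Transcript lengths for shares and ratios, and all alternatives for lists and other named genes, were added after seeing the data.

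The members, the lists and the naming rule were chosen with earlier results of these data known. The rule names the receptors, other Fc receptors, Fcer1g, Syk and Inpp5d, the 4 highest and 4 lowest called genes of each further list, tested genes within 100 kb of a member and the 3 genes of closest profile. Spi1, Oscar, Cd22 and single markers at 0 were named after their values were seen. Some genes that the rule includes are not reported here.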

Additional observations from a re-analysis of the deposited data

How the results depend on the processing

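The rise of Fcgr3 was called under all 14 alternatives, and Fcgr4 and Fcgr2b under none. Leaving out 1 library each gave log2 fold changes of -0.76 to -0.45 for Fcgr1, 0.76 to 0.83 for Fcgr3, 0.24 to 0.32 for Fcgr4 and 0.01 to 0.11 for Fcgr2b, and 1087 to 1394 calls over all genes (1868 with all libraries, 1120 without vehicle replicate 1 and 1087 without vehicle replicate 2). In each such fit the lone library of a group was assumed to vary like the other group. Same-numbered libraries did not deviate together (correlation of -0.030 over genes), so the numbers were not taken as pairs. With the replicate block, 1389 genes were called, and Fcgr1 at -0.60 was no longer called (adjusted p 0.0619). The calls of the other receptors were as without it. The share of Fcgr2b changed by -3.19 percentage points with CPM and by -1.40 with transcript lengths in place of FPKM, and by 0.909 without Fcgr3, and the log2 ratio of activating receptors to Fcgr2b by 0.69 with transcript lengths and by -0.076 without Fcgr3. These shares and ratios were not fitted with the replicate block, since they come from a permutation of libraries.

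Scaling reversed small differences, none of them called. With library totals only, log2(FPKM + 1) and log2(FPKM + 0.01), in this order, the log2 fold changes were -0.046, -0.037 and -0.044 for Fcgr2b, -0.076, -0.073 and -0.076 for Inpp5d, -0.094, -0.089 and -0.094 for Atf6, -0.045, -0.039 and -0.043 for Mrps33, -0.041, -0.035 and -0.040 for Wdr11, -0.046, -0.045 and -0.046 for Sdhc, and -0.069, -0.021 and -0.027 for Gm20634. Leaving out 1 library reversed Inpp5d (-0.033 to 0.091), Cfap126 (-0.45 to 1.24), Atf6 (-0.029 to 0.053), Gm9929 (-0.86 to 0.26) and Gm20634 (-0.24 to 0.39). Of 958 values of the 69 other named genes, 861 kept their direction and side of the threshold, 69 lost the call, 3 gained it and 25 reversed. The cause of these shifts was not tested. Depth limits Fcgr1 and Fcgr4, with 214 to 371 counts per library, more than Fcgr3.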

Other observations

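Among untested genes within 100 kb of Fcgr1, Hist2h2aa1 had 181 counts and Hist2h3c1 had 25 counts in vehicle replicate 2, and both had 0 counts in the other libraries. Both belong to groups of near-identical histone genes, between which reads can be split, so these counts are uncertain. They were chosen after their values were seen.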
